A study of Mus musculus with 12 samples.

Results

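The transcripts of 4 genes of a centriole complex, Cep76, Ccp110, Cep97 and Kif24, were measured in the mouse cerebellum. They were picked by Ensembl identifier and make up 4 of the 56941 genes in the count tables. All 4 passed the filter on low counts, which left 20341 genes. Cep76 was picked because it was 1 of 7 genes called in SCA1 sedentary against WT sedentary mice, and the others because they encode its partners. Values of Cep76 in that comparison are therefore given as a description without a test.

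Bulk RNA was sequenced from the cerebellum of 12 male and female mice, with 3 mice in each of 4 groups. SCA1 mice were heterozygous for an Atxn1 knock-in, which places an expanded glutamine repeat at the mouse's own Atxn1 locus and so in every cell that expresses the gene. WT mice were C57BL/6J littermates. The exercise groups had free access to a running wheel from 4 to 16 weeks of age and were housed alone, while the sedentary groups had no wheel and were housed together, so the wheel and the housing cannot be told apart. Per the study, all mice went through behavioral tests that began at about 16 weeks of age, and the tissue was taken after the last test. The wheels had been taken out of the cages before the tests. Mice are named by their labelled numbers, which were 116, 117 and 192 for WT sedentary, 121, 197 and 201 for WT exercise, 16, 194 and 195 for SCA1 sedentary and 55, 122 and 198 for SCA1 exercise.

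Centrioles are short microtubule barrels that organize the centrosome and, when docked at the cell surface, template a cilium. CP110, encoded by Ccp110, and its partner Cep97 cap the far end of the centriole, which limits its length and holds back the growth of a cilium. Cep76 binds CP110 and restrains the repeated duplication of centrioles within a cell cycle. Kif24, a kinesin of the microtubule-shortening kind, holds CP110 at the mother centriole. Most neurons of the adult cerebellum have left the cell cycle, and many carry a primary cilium or its remnant.

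On GRCm39 with the GENCODE M39 annotation, Cep76 (ENSMUSG00000073542) lies on the minus strand at chr18:67750033-67774615. Ccp110 (ENSMUSG00000033904) lies on the plus strand at chr7:118311740-118336248. Cep97 (ENSMUSG00000022604) lies on the minus strand at chr16:55720251-55755241, and Kif24 (ENSMUSG00000028438) on the minus strand at chr4:41389632-41464901. All are protein-coding genes. The exons of Cep76 share 230 bases with those of Psmg2 on the other strand, and the exons of Kif24 share 894 bases with those of Ubap1 on the other strand. Counts are therefore given by strand.

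Between 20556802 and 32127508 read pairs per library were counted on genes. In mice 16 and 55 the share of reads mapping to several places was 6.38% and 6.33%, against 2.08% to 3.46% in the others. The same mice had the lowest summed level of the 15 granule cell markers and the highest of the 13 oligodendrocyte markers, and results of the members and gene lists between the genotypes are in most cases also given without them. Per the methods of the study, the RNA of a pair of samples had lower integrity than the rest, and their libraries were made with shorter fragmentation and fewer PCR cycles. Which mice these were is not given in the sources used here. Markers of cerebellar neurons were abundant in all libraries, with Itpr1 at 4691 CPM and Fat2 at 2281 CPM on average in WT sedentary mice. Atxn1, the targeted gene, was at 147 to 193 CPM in the 12 mice, and the counts do not separate its alleles. Chromosome Y genes, absent from females, averaged -3.64 to -2.49 log2 CPM in mice 201 (WT exercise), 194 (SCA1 sedentary), 55 and 122 (SCA1 exercise). In all other mice they averaged 5.64 to 6.04. By this the sexes were not balanced across the groups, and sex was not part of the main model.

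The promoter windows of Ccp110, Cep97 and Kif24 are shown because the levels of the members did not run together across the groups. No window for Cep76 was available in the sources used here, so its promoter was not examined. Each window runs from 250 bases before to 50 bases after the start site in RefSeq, is written 5′ to 3′ on the strand of the gene, and was placed on GRCm39 by an exact match, at chr7:118311516-118311815 (plus strand) for Ccp110, chr16:55755162-55755461 (minus strand) for Cep97 and chr4:41464799-41465098 (minus strand) for Kif24. Capitals mark the letters GTTGCC, the letters CCAAT and the core of the ZNF143 element on either strand. The ZNF143 core, found on the reverse strand, reads GGGA, any 2 letters and TGTAGT in these windows, and in Cep97 a CCAAT overlaps its own reverse complement.
Ccp110: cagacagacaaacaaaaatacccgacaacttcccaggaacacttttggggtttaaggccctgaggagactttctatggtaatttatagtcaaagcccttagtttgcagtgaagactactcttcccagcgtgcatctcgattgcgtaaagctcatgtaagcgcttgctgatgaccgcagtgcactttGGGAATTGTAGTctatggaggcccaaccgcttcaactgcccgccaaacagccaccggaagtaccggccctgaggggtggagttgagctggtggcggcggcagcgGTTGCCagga
Cep97: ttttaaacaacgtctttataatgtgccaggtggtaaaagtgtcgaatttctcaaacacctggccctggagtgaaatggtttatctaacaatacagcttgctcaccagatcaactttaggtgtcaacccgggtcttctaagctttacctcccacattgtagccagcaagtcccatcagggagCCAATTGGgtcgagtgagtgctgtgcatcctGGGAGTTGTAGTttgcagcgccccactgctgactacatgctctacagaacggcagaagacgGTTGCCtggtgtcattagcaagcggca
Kif24: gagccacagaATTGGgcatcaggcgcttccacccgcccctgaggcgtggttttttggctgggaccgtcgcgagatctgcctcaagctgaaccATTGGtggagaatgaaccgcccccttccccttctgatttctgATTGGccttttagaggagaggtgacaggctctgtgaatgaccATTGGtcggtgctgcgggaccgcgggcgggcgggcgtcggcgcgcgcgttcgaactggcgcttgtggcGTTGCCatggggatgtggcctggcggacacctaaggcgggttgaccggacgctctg
GTTGCC is the core of the X-box read by RFX factors, CCAAT is the box read by NF-Y, and the ZNF143 element is a longer promoter element read by ZNF143. GTTGCC was in all 3 windows, against 12.5% of 32851 RefSeq promoter windows of the same length. With the start site as base 1, it began at base 41 in Ccp110, at base 24 in Cep97 and at base -6 in Kif24. The ZNF143 core was in the windows of Ccp110 and Cep97 and in 1.81% of all windows. CCAAT was present 4 times in Kif24, 2 times in Cep97 and 0 times in Ccp110, and 37.4% of all windows held it. The octamers TGAATGAA and TGAATGGA, read by Capicua, the DNA-binding partner of ataxin-1, were in 0 of the 3 windows and in 1.3% and 1.21% of all windows. The E2F octamers TTTCCCGC and TTTGGCGC were also in 0 of the 3 windows and in 1.07% and 0.514% of all windows, and the NRF1 site was in 0 of the 3 and in 0.971%. Both strands were searched. These motifs were chosen after the sequences had been read, and a match is a description of letters only.

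Cep76 was the member whose levels lay apart between the genotypes. In CPM, which are counts scaled to a common library size by TMM, it measured 117, 128 and 106 in the WT sedentary mice 116, 117 and 192. In WT exercise mice 121, 197 and 201 it measured 121, 111 and 111. In SCA1 sedentary mice 16, 194 and 195 it measured 60.0, 67.0 and 70.1. In SCA1 exercise mice 55, 122 and 198 it measured 96.5, 88.3 and 76.4. All 6 SCA1 mice lay below all 6 WT mice, and the exercised SCA1 mice lay between the other SCA1 mice and WT without overlap. Higher levels without overlap against SCA1 sedentary mice held for 2.43% of genes and lower levels against WT sedentary mice for 5.01%. Being below in all 6 SCA1 mice held for 166 genes, or 0.816% of those tested, and this count includes the 6 libraries that chose Cep76.

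**Figure D1:**
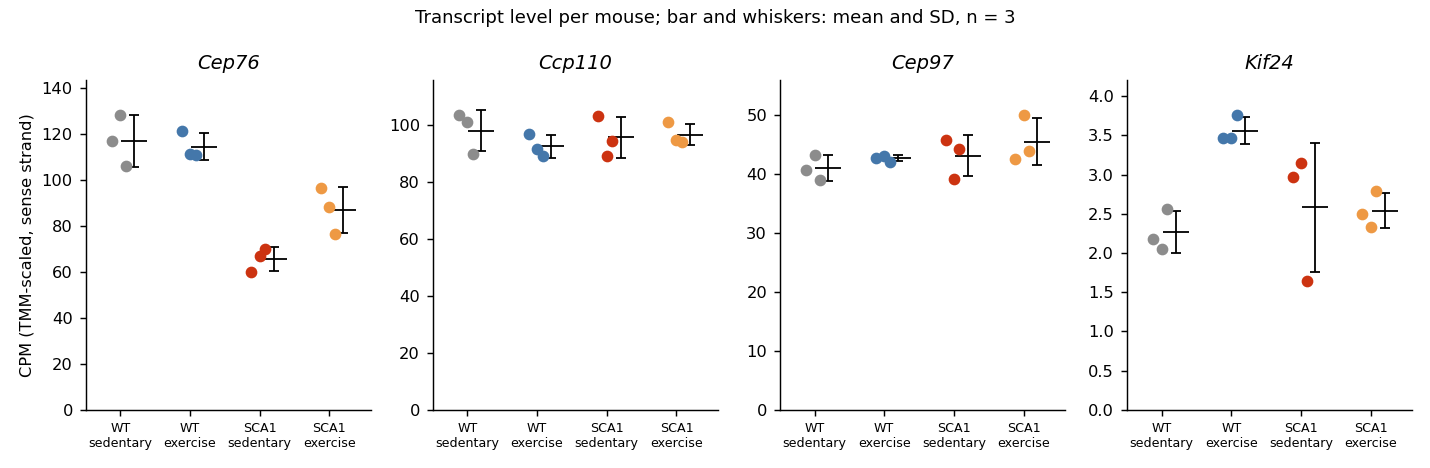
Level of each member in CPM (vertical axes from 0, a separate scale for each gene) in each of 12 mice, by group (horizontal axes). Points are mice, and the black mark with whiskers is the mean ± SD of 3 mice. Cep76 was at 60.0 to 96.5 CPM in the SCA1 mice and 106 to 128 CPM in the WT mice, whereas the ranges of Ccp110 overlapped between all groups.

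The genotypes were compared among exercised mice, which use none of the 6 libraries that chose Cep76 but share the estimate of the spread with them. Cep76 averaged 87.0 ± 10.1 CPM (SD, n = 3) in SCA1 exercise and 114 ± 5.90 CPM (n = 3) in WT exercise mice, 23.9% lower, with no overlap. The log2 fold change was -0.39 with a 95% interval of -0.63 to -0.16. Its unadjusted p in edgeR's quasi-likelihood test was 0.00348, the 39th smallest of 20341, and its Benjamini-Hochberg adjusted p was 0.960. A gene was called at an adjusted p under 0.05 with a log2 fold change over 0.5 in size, and Cep76 was not called. In this comparison 0% of genes were called, 2.93% had an unadjusted p under 0.05 (1.48% with lower levels in SCA1), and 6.92% were lower without overlap. Without mice 16 and 55 the log2 fold change of Cep76 was -0.46 (95% interval -0.69 to -0.24), with an unadjusted p of 0.000515 and an adjusted p of 0.124 in edgeR. The exact permutation p was 0.1, the smallest that 3 mice against 3 allow.

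The partners of Cep76 that cap the centriole showed no such separation. Ccp110 measured 103, 101 and 89.7 CPM in the WT sedentary mice, 96.9, 91.6 and 89.0 in the WT exercise mice, 103, 89.2 and 94.5 in the SCA1 sedentary mice, and 101, 94.7 and 94.1 in the SCA1 exercise mice. Every pair of groups overlapped. In the exercised mice its log2 fold change between the genotypes was 0.06 with a 95% interval of -0.13 to 0.26 (edgeR unadjusted p = 0.499, adjusted p = 0.960). The lower bound of Ccp110 thus lay above the value of Cep76 in the same comparison. Cep97 measured 40.6, 43.2 and 38.9 CPM in the WT sedentary mice, 42.8, 43.0 and 42.1 in the WT exercise mice, 45.8, 39.1 and 44.2 in the SCA1 sedentary mice, and 42.5, 49.96 and 43.9 in the SCA1 exercise mice. Mouse 122 stood highest and all groups overlapped. Its log2 fold change in the exercised mice was 0.09 (95% interval -0.12 to 0.31, edgeR unadjusted p = 0.365, adjusted p = 0.960). With mice 16 and 55 left out, Ccp110 was at 0.04 (-0.14 to 0.22) and Cep97 at 0.15 (-0.07 to 0.37).

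The count of Cep76 over that of Ccp110 within a library needs no scaling between libraries. The ratio was 1.13, 1.27 and 1.18 in the WT sedentary mice and 1.25, 1.21 and 1.25 in the WT exercise mice. It was 0.581, 0.751 and 0.741 in the SCA1 sedentary mice and 0.956, 0.932 and 0.811 in the SCA1 exercise mice. Cep76 thus gave more read pairs than Ccp110 in every WT mouse and fewer in every SCA1 mouse. The sedentary libraries among these chose Cep76 as a low gene in SCA1, so this split is a description. In exercised mice the log2 ratio was lower by -0.46 in SCA1 (exact permutation p = 0.1, two-sided, the smallest possible). The ratio of Cep76 to Cep97 averaged 1.93 ± 0.300 in SCA1 exercise and 2.69 ± 0.133 in WT exercise mice (n = 3 each), a log2 difference of -0.49 with the same exact permutation p of 0.1.

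Per kilobase of annotated exon, the levels ran in the order Cep76, Ccp110, Cep97 and Kif24, with means over 12 libraries of 19.9, 11.5, 3.95 and 0.285 CPM per kilobase. The ranges of Cep76 and Ccp110 met among SCA1 sedentary mice. In mouse 16, Cep76 was at 12.40 and Ccp110 at 12.44 CPM per kilobase, and in the 11 other mice Cep76 was the higher. The other neighbours in this order did not overlap in any group. These lengths take in the exons of all annotated isoforms.

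In the comparison that chose Cep76, its level was 65.7 ± 5.18 CPM in SCA1 sedentary and 117 ± 11.2 CPM in WT sedentary mice (n = 3 each), a log2 fold change of -0.83. In this comparison 0.0344% of the genes tested were called. Cep76 was picked for being among them, so its p is not given. The last gene inside the limit was Nrg3 at an edgeR adjusted p of 0.0451, while Kcnip4 and Ppp1r17 lay just outside at 0.0532. Ccp110, Cep97 and Kif24 had log2 fold changes of -0.04, 0.07 and 0.19 between these groups, and none was called. Leaving out mice 16 and 55 gave -0.75 for Cep76 and -0.08, 0.04 and 0.10 for the others. Values of SCA1 exercise mice against either sedentary group share libraries with this comparison, so the Cep76 values are again given without a test. Its log2 fold change was 0.41 against SCA1 sedentary mice and -0.43 against WT sedentary mice. Without mice 16 and 55 the former was 0.26 and the latter -0.49.

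The wheel in WT mice left the centriole cap transcripts near their sedentary levels. Cep76 averaged 114 CPM with the wheel and 117 CPM without, a log2 fold change of -0.03. Ccp110 had a log2 fold change of -0.08 (95% interval -0.28 to 0.11, edgeR adjusted p = 0.958) and Cep97 of 0.06 (-0.16 to 0.27, edgeR adjusted p = 0.972). In SCA1 mice the wheel gave log2 fold changes of 0.01 for Ccp110 (-0.18 to 0.21, edgeR adjusted p = 0.999) and 0.08 for Cep97 (-0.14 to 0.29, edgeR adjusted p = 0.999). The interaction of genotype and exercise was 0.10 for Ccp110 (-0.18 to 0.37, edgeR adjusted p = 1.00) and 0.02 for Cep97 (-0.28 to 0.32, edgeR adjusted p = 1.00). Against WT sedentary mice, SCA1 exercise mice had log2 fold changes of -0.02 for Ccp110 (-0.22 to 0.17), 0.15 for Cep97 (-0.06 to 0.37) and 0.16 for Kif24 (-0.38 to 0.70), with edgeR adjusted p = 1.00 for each. No gene was called in these comparisons, and all share sedentary libraries with the one that chose Cep76.

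**Figure D2:**
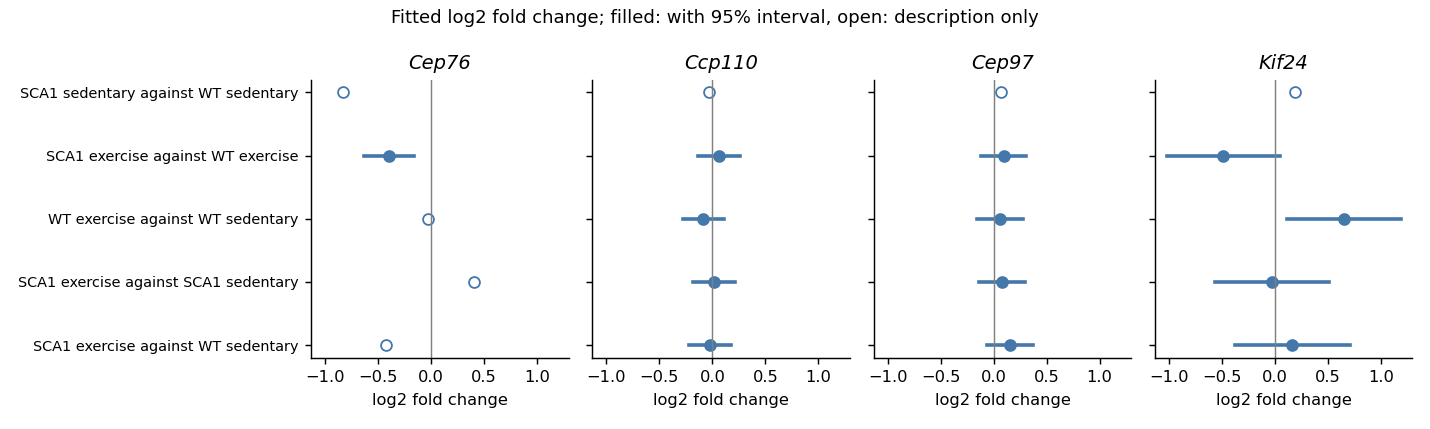
Fitted log2 fold change (horizontal axes) of each member in 5 comparisons of groups (vertical axis). Filled points have a line for the 95% interval from edgeR, and open points are values given as a description. The interval of Cep76 in SCA1 exercise against WT exercise mice ran from -0.63 to -0.16, and those of Ccp110 and Cep97 spanned 0 in each comparison.

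Kif24 was the least abundant member and stood highest in WT exercise mice. On its own strand it measured 2.18, 2.05 and 2.57 CPM in the WT sedentary mice, 3.46, 3.46 and 3.76 in the WT exercise mice, 2.97, 3.14 and 1.64 in the SCA1 sedentary mice, and 2.50, 2.34 and 2.79 in the SCA1 exercise mice. The WT exercise mice did not overlap with any other group, and the SCA1 sedentary mice spread the most. In WT mice the level with the wheel was 1.57 times that without it, a log2 fold change of 0.65 with a 95% interval of 0.12 to 1.19 (edgeR unadjusted p = 0.0212, adjusted p = 0.958). This did not pass the threshold, and 4.69% of genes had an unadjusted p under 0.05 in that comparison, 0% were called, and 10.1% were higher without overlap. Against WT exercise mice, SCA1 exercise mice had a log2 fold change of -0.49 (95% interval -1.02 to 0.05, edgeR unadjusted p = 0.0711, adjusted p = 0.960). The wheel in SCA1 mice gave -0.03 (-0.57 to 0.51), and the interaction of genotype and exercise -0.68 (-1.44 to 0.08, edgeR unadjusted p = 0.0752, adjusted p = 1.00). These values rest on 34 to 93 read pairs per library. For the lowest, mouse 195 with 34, the exact Poisson 95% interval of the count was 23.5 to 47.5, which covers counting error only.

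Most read pairs in Kif24 came from the other strand. In the 12 libraries together 816 pairs were counted on the strand of Kif24 and 3992 on the opposite strand, so the opposite strand held 83.0% of them, and per library it held 76.8% to 90.2%. The median over all tested genes was 0.445%, and 521 tested genes had a higher share than Kif24. More pairs on the opposite strand than on their own were counted for 6.32% of genes. For Cep76, Ccp110 and Cep97 the shares were 0.0938%, 0.0524% and 0.0936%. When strand was ignored 4803 pairs were counted for Kif24. Nearly all opposite-strand pairs thus lay outside the exons of any other gene in the annotation used for counting. The release of that annotation is not given, so whether it holds the exon bases shared with Ubap1 in GENCODE M39 is not known. The part of Ubap1 transcripts in the opposite-strand pairs was not tested. The opposite-strand level was 13.1 CPM in WT sedentary, 15.0 CPM in WT exercise, 13.9 CPM in SCA1 sedentary and 12.2 CPM in SCA1 exercise mice on average. Between WT exercise and WT sedentary mice the opposite-strand levels overlapped (exact permutation p = 0.5), and with strand ignored the log2 fold change of Kif24 in that comparison was 0.25 in place of 0.65. The tables do not give the place of reads within a gene.

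**Figure D3:**
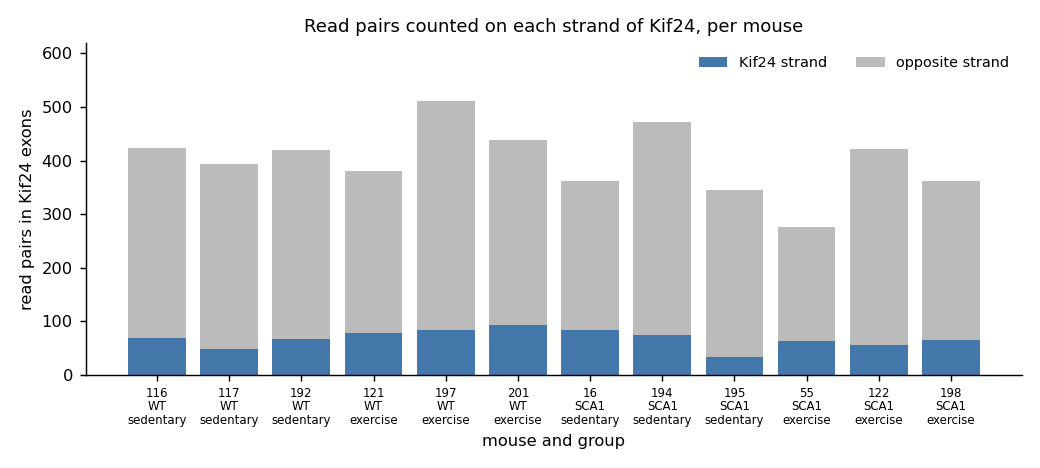
Read pairs in the exons of Kif24 (vertical axis, from 0) in each of 12 mice (horizontal axis), stacked by strand. Blue bars are the strand of Kif24, with 34 to 93 pairs, and grey bars are the opposite strand, with 214 to 428 pairs.

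Against WT sedentary mice, markers of ciliated cells and of the choroid plexus were higher by the median in WT exercise mice, as Kif24 was. They were also higher by the median in both SCA1 groups. All 17 tested genes of multiciliated cells, such as Ccdc39 and Dnah9, which serve motile cilia, were higher in WT exercise than WT sedentary mice. Their median log2 fold change was 0.85, against 0.00 over all genes, and 7 had an unadjusted p under 0.05 with 0 called, against 4.69% and 0% of all genes. Dnah9 had a log2 fold change of 1.53 and Ccdc39 of 0.32. With mice 16 and 55 left out, 11 of the 17 had an unadjusted p under 0.05, and Dnah9 and Gmnc, a gene that starts the multiciliated program, were called (edgeR adjusted p = 0.0232 and 0.0375). In that fit 13.3% of all genes had an unadjusted p under 0.05 and 0.312% were called. The summed level of the 20 genes listed was 175 to 192 CPM in WT exercise and 117 to 145 CPM in WT sedentary mice. It was 117 to 131 CPM in SCA1 sedentary and 115 to 179 CPM in SCA1 exercise mice. None of the genes was at 0 in all libraries. Dnah11, the most abundant of them, averaged 86.2 CPM in WT sedentary and 110 CPM in WT exercise mice, and so made up most of the sum in WT mice. In SCA1 mice it averaged 49.4 CPM without the wheel and 64.6 CPM with it. Dnah11 was thus lower in SCA1 sedentary than WT sedentary mice, whereas 14 of the 17 tested genes were higher there, with a median log2 fold change of 0.58. The 10 choroid plexus markers, led by Ttr, summed to 862 to 1992 CPM in WT exercise and 22.3 to 429 CPM in WT sedentary mice, with a median log2 fold change of 2.88. Of these 10, 9 had an unadjusted p under 0.05 and 0 were called, and Prlr, Clic6 and Slc4a5 were called without mice 16 and 55 (edgeR adjusted p = 0.0416, 0.0342 and 0.0457). In SCA1 mice they summed to 30.4 to 1219 CPM without the wheel and 558 to 1679 CPM with it. The part of these cells in the Kif24 values was not tested.

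The wider CP110 network was compared between the exercised groups, where 0% of all genes were called and 2.93% had an unadjusted p under 0.05. Of 19 tested partners and regulators of CP110, 0 were called and 0 had an unadjusted p under 0.05. Their median log2 fold change was -0.01, with 12 lower, and without mice 16 and 55 it was again -0.01, with 10 lower. The list holds Cep290, which works with CP110 at the start of cilium growth, at -0.25 (edgeR unadjusted p = 0.0507), and Ccnf, whose product marks CP110 for destruction, at -0.16. Usp33, which removes that mark, was at 0.00 and Ttbk2, the kinase that clears CP110 from the mother centriole, at 0.04. Of 6 kinesin-13 and kinesin-8 genes, the motors related to Kif24 in function, 3 passed the filter and had a median of -0.05, or 0.03 without mice 16 and 55. Kif2a, the most abundant of them, was at 77.4 ± 6.88 CPM in SCA1 exercise and 79.9 ± 2.56 CPM in WT exercise mice.

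Of the 27 centriole assembly genes 25 were lower in SCA1 exercise than WT exercise mice, with a median log2 fold change of -0.12. Among all genes 49.3% were lower. None of the 27 was called and 0 had an unadjusted p under 0.05, with Plk4, the kinase that starts a new centriole, at -0.18 and Cep192, which recruits it, at -0.25. In the fit without mice 16 and 55, 17 of 27 were lower and the median was -0.02. Of 34 genes of the distal appendages and the primary cilium, 23 were lower with a median of -0.02, and 0 had an unadjusted p under 0.05. Of these 34, 18 were lower without mice 16 and 55, and the median was -0.01. Of 13 tested cell cycle genes 6 were lower with a median of 0.03, which turned to 8 lower and -0.12 without mice 16 and 55. Ccnb1, Bub1 and Aurkb did not pass the filter, with at most 9 pairs in any library. Of the 17 tested multiciliated genes 9 were lower, with a median of -0.09. Leaving out mice 16 and 55 gave 15 lower with a median of -0.62, and 8 had an unadjusted p under 0.05, of which 7 were lower, against 6.88% of all genes in that fit. Dnah11, a motile cilium motor and the most abundant of them, was at 64.6 ± 13.9 CPM in SCA1 exercise against 110 ± 1.33 CPM in WT exercise mice (n = 3 each, log2 fold change -0.77, edgeR unadjusted p = 0.00276, adjusted p = 0.960). Without mice 16 and 55 its log2 fold change was -0.94 and it was called (edgeR adjusted p = 0.00641), as were 0.181% of all genes.

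**Figure D4:**
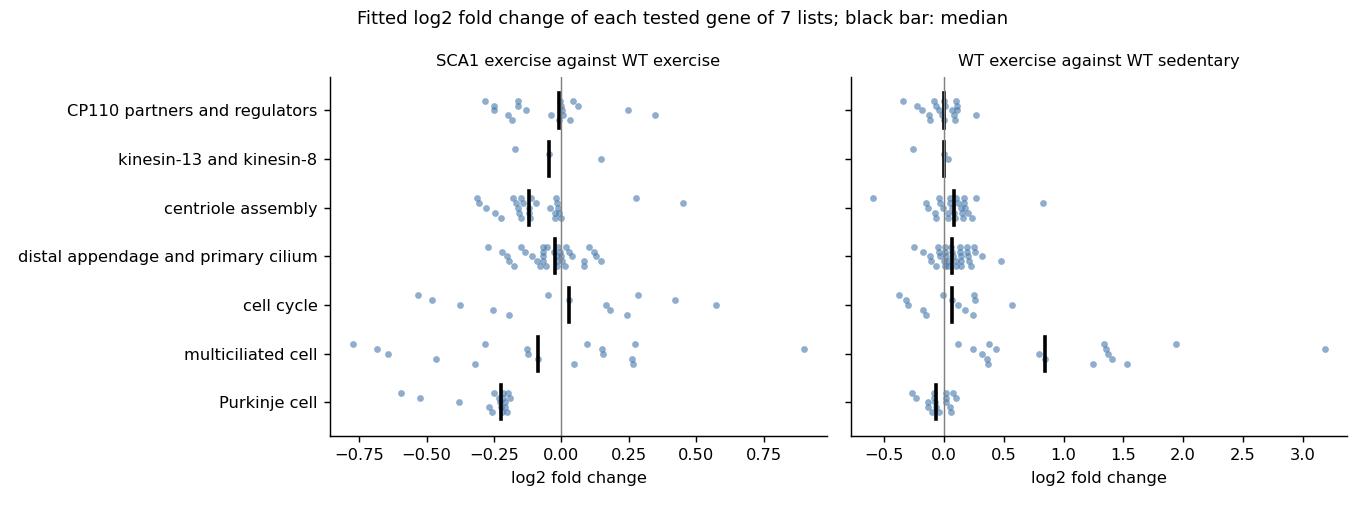
Fitted log2 fold change (horizontal axes) of every tested gene in 7 lists (vertical axis), for SCA1 exercise against WT exercise mice on the left and WT exercise against WT sedentary mice on the right. Each point is a gene and the black bars are medians. On the left all 17 Purkinje cell genes lay below 0 and the CP110 partners centred near 0, and on the right all 17 multiciliated cell genes lay above 0.

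The genes nearest in pattern to Cep76 included markers of Purkinje cells, the output neurons of the cerebellar cortex, which are a main site of SCA1 disease. The likeness of 2 genes was measured as the root mean square difference of their log2 CPM over the 12 libraries, each centred on its own mean. The nearest gene to Cep76 was Car8, an IP3 receptor regulator of Purkinje cells, at 0.0740. Calb1, which encodes the calcium buffer calbindin, came next at 0.0838. They were followed by the orphan receptor gene Gpr63 at 0.0870, by Atl2, which shapes the endoplasmic reticulum, at 0.0960, and by Pde5a, a cGMP phosphodiesterase, at 0.0960. The median over all genes was 0.445, and the root mean square of Cep76 about its own mean was 0.355. Car8 and Calb1 are on the list of 17 Purkinje cell markers. Since 6 of the libraries chose Cep76 as a low gene in SCA1, this nearness is a description.

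**Figure D5:**
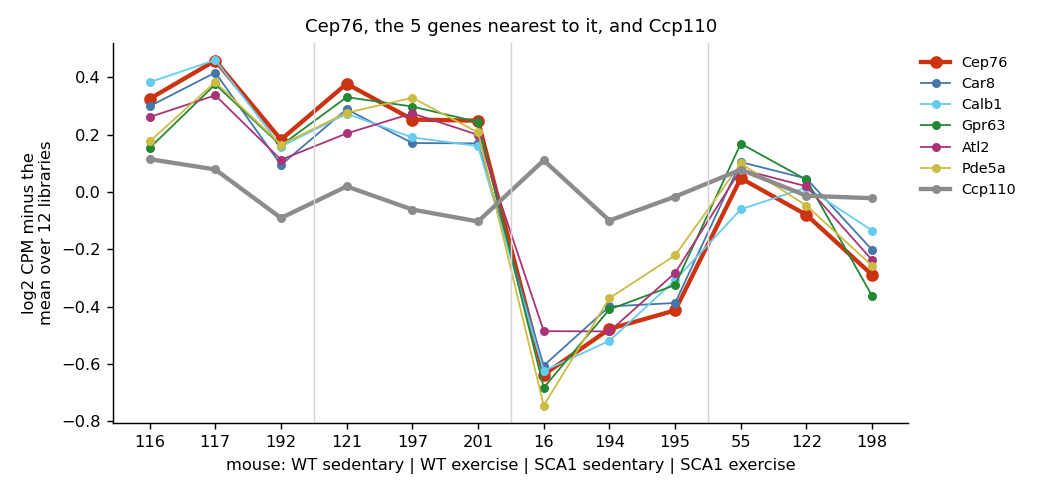
Log2 CPM minus the mean over 12 libraries (vertical axis) for Cep76, its 5 nearest genes and Ccp110 in each mouse (horizontal axis, by group). Cep76 and its nearest genes stood above 0 in the 6 WT mice and below 0 in the 3 SCA1 sedentary mice, and Ccp110 ran from -0.10 to 0.11.

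The members were less alike among themselves. Cep76 was 0.360 from Ccp110, and 22.01% of genes were nearer to Cep76 than that. It was 0.389 from Cep97 and 0.458 from Kif24. Ccp110 and Cep97 were the most alike, at 0.102, with 4.99% of genes nearer to Ccp110. The genes nearest to Ccp110 were Psmd11, a proteasome subunit gene, at 0.0324, the nuclear import factor gene Kpnb1 at 0.0360 and Oxct1, a ketone body enzyme gene, at 0.0410. Those nearest to Cep97 were Spag9 at 0.0243, Lsamp at 0.0386 and Ppp2r5e at 0.0450. For Kif24 they were Tgfb1 at 0.183, Nat8 at 0.187 and Fhip1a at 0.197. A flat gene lies close to any other flat gene by this measure.

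Purkinje cell markers had lower levels in the SCA1 mice, as did most granule cell markers, the latter by less when mice 16 and 55 were left out. All 17 Purkinje cell markers were lower in SCA1 exercise than WT exercise mice, with a median log2 fold change of -0.22 against 0.00 over all genes, and Calb1, Pcp4, Rgs8 and Gng13 had an unadjusted p under 0.05 with 0 called. Without mice 16 and 55 the median was -0.29, with 13 under 0.05 and Pcp4 called (edgeR adjusted p = 0.0189). In that fit 6.88% of all genes had an unadjusted p under 0.05. Cep76, at -0.39, was lower than all but Pcp4 (-0.60) and Gng13 (-0.52). In SCA1 sedentary against WT sedentary mice the median was -0.58 and Calb1 and Pcp4 were called. This median was -0.45 without mice 16 and 55, and 8 of the 17 were called, against 1% of all genes. The summed level of the 17 markers was 10060 to 11343 CPM in WT sedentary, 10529 to 11195 CPM in WT exercise, 6213 to 8105 CPM in SCA1 sedentary and 8041 to 10058 CPM in SCA1 exercise mice. None of the 17 was at 0 in all libraries.

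Of the 15 markers of granule cells, the small excitatory neurons of the cerebellar cortex, 13 were lower in SCA1 exercise than WT exercise mice, with a median log2 fold change of -0.21, and 0 had an unadjusted p under 0.05. The median was -0.05 without mice 16 and 55, with 9 of 15 lower. Between the sedentary groups 14 of 15 were lower with a median of -0.42, and 9 had an unadjusted p under 0.05, as did 10.1% of all genes, with 0 called. Here too the median was nearer 0 without mice 16 and 55, at -0.19 with 10 lower. The difference between the Purkinje and the granule cell markers was not tested.

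Relative to the WT sedentary mean, the 17 markers averaged -0.16, -0.34 and -0.49 on the log2 scale in SCA1 exercise mice 55, 122 and 198, where Cep76 stood at -0.27, -0.40 and -0.61. In SCA1 sedentary mice 16, 194 and 195 they averaged -0.81, -0.50 and -0.61, and Cep76 stood at -0.96, -0.80 and -0.74. The order of the exercised SCA1 mice was the same for the markers and for Cep76. Among the sedentary SCA1 mice the order differed, with mouse 195 below mouse 194 for the markers and above it for Cep76. Cep76 was lower than the markers' mean in all 6 SCA1 mice. The sedentary libraries, which also set the baseline, chose Cep76 as a low gene in SCA1, so this is a description. In bulk tissue, fewer cells of a type and less RNA per cell cannot be told apart, and the part of Purkinje or granule cells in the Cep76 values was not tested.

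The genes next to the members in the genome were also measured. Psmg2, a proteasome assembly gene that overlaps the start of Cep76 on the other strand, was at 6.95 ± 0.757 CPM in SCA1 exercise and 6.83 ± 0.467 CPM in WT exercise mice (n = 3 each, log2 fold change 0.02, edgeR adjusted p = 0.990). Spire1, an actin nucleator gene beyond the end of Cep76, had a log2 fold change of -0.14 (edgeR unadjusted p = 0.104, adjusted p = 0.960). Between the sedentary groups Psmg2 and Spire1 had log2 fold changes of -0.52 and -0.20 (edgeR unadjusted p = 0.00780 and 0.0269, adjusted p = 0.320 and 0.431). Of all genes, 10.1% had an unadjusted p under 0.05 there. Around the other members, Gde1, Vps35l, Rpl24, Nxpe3, Nudt2 and Ubap1 had log2 fold changes of -0.28 to 0.27 in the exercised mice, and none was called.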

How the data were processed

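Cerebellar RNA was depleted of ribosomal RNA by the authors and made into strand-specific libraries. Reads were checked with FastQC 0.11.9, trimmed with fastp 0.24.0 and aligned to GRCm39 with STAR 2.7.10a, versions being those in the submitters' processing notes. The deposited tables hold, for every gene, raw counts of read pairs that STAR assigned without regard to strand and to either strand, and the authors applied no scaling to them. The annotation release is not given in the sources used here. Of 56941 genes, 56323 matched GENCODE M39 by identifier. Summary lines that name no gene were left out of library sizes, and pairs outside any feature on the counted strand took 39.3% to 58.7% of read pairs.

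The reverse-strand counts were used, with 20556802 to 32127508 per library. In R 4.3.3, edgeR 4.0.16 was used with filterByExpr, TMM and 1 quasi-likelihood model of 4 groups over 12 libraries. A gene was called when its p, adjusted by Benjamini-Hochberg over all tested genes, was under 0.05 and its log2 fold change exceeded 0.5 in size. Log2 CPM used a prior count of 2. Permutation tests were exact and two-sided. Nothing in the labels ties mice to litters or batches. The p-values measure the spread between mice and cannot separate from it any unlabelled differences of litter or batch. Sex was not in the main model either. The fit was tested on simulated data for SCA1 exercise against WT exercise mice. It called 4.48% of 67 genes set to a log2 fold change of 0.6 in size. Of 66 genes set to 1 it called 28.8%, and of 66 set to 1.5 it called 66.7%. Of 19805 genes set to 0 it called 0.0202%. Sizes between 0 and 0.6 were not tested.

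The members, the 13 gene lists and the tests were chosen with earlier results of these data known. Named were the members, Atxn1, neighbouring tested protein-coding genes, the 5 genes nearest to Cep76 and the 3 nearest to each other member, list genes called or, failing that, with the smallest unadjusted p, and the most abundant marker of a cell type. List genes given as examples beyond this rule, and Gng13, were chosen after their values were seen. Alternatives were RLE size factors, library totals, DESeq2 1.42.0, 2 other filters, unstranded counts, the 2 groups alone, a covariate for chromosome Y expression, a block for bands of mouse numbers, no limit on the fold change, and mice left out. List counts without mice 16 and 55 or under other scalings were added after seeing the data.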

Additional observations from a re-analysis of the deposited data

Results flagged for a closer look

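Kif24 drew attention because of the opposite-strand counts, which the main model of the groups did not use. They made up 83.0% of the stranded read pairs in its exons over the 12 libraries, against a median of 0.445% over all tested genes. The share was high in each library, from 76.8% to 90.2%, in WT as in SCA1 mice.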

How the results depend on the processing

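No member passed the threshold or lost it under any of 23 alternatives (22 for the interaction), other than in the comparison that chose Cep76, where no test is given. Cep76 kept its direction in all of them in SCA1 exercise against WT exercise mice, with log2 fold changes of -0.46 to -0.32 and adjusted p of 0.124 to 1.00. The lowest adjusted p was that without mice 16 and 55. Small values changed sign. With a block for the bands of mouse numbers, Cep76 in WT exercise against WT sedentary mice was 0.0144, Ccp110 and Kif24 in SCA1 exercise against SCA1 sedentary mice were -0.0200 and 0.0208, and the interaction of Cep97 was -0.0601. That interaction was -0.00138 when 10 counts were required in all libraries. In SCA1 exercise against WT sedentary mice, Kif24 was -0.0648 with unstranded counts and Ccp110 was 0.0187 with the chromosome Y covariate. Without mice 16 and 55, Kif24 in SCA1 exercise against SCA1 sedentary mice was 0.0859. With each mouse left out in turn, Cep76 in WT exercise against WT sedentary mice ran from -0.102 to 0.0528. In SCA1 exercise mice, Ccp110 ran from -0.0221 to 0.0723 against SCA1 sedentary and -0.0923 to 0.00917 against WT sedentary mice, Kif24 from -0.261 to 0.146 against SCA1 sedentary mice, and Cep97 from -0.0146 to 0.140 against SCA1 sedentary and -0.00572 to 0.150 against WT exercise mice. The interaction of Cep97 ran from -0.0774 to 0.0758. The cause was not tested.

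The number of genes called over all genes depended on the setting. It was 0 in the fit of 12 libraries with edgeR for each comparison but SCA1 sedentary against WT sedentary mice, with 7. DESeq2 called 203 between the sedentary groups, 63 in WT exercise against WT sedentary mice, 30 in SCA1 exercise against WT sedentary, 3 against WT exercise and 1 against SCA1 sedentary mice, and 2 in the interaction. With all genes of at least 1 count, the first 3 of these gave 76, 45 and 17. The 2 groups alone gave 0 and 150 in the first pair, and the chromosome Y covariate gave 2 between the sedentary groups. The bands block gave 55, 33, 5 and 3 in the first 4, and leaving out mice 16 and 55 gave 205, 64, 46 and 37. With each mouse left out the ranges were 0 to 42, 0 to 19, 0 to 3 and 0 to 5 in the first 4 and 0 to 1 in the interaction. Between the sedentary groups the count was 0 without mouse 116 or 117 and 42 without mouse 55. No paired analysis was possible because the groups share no mouse numbers. Kif24 is limited by its 34 to 93 read pairs per library.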

Other observations

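All 10 microglia markers were higher in SCA1 exercise than WT exercise mice, with a median log2 fold change of 0.37, and 0 were called. When mice 16 and 55 were left out, 8 of 10 were higher and the median was 0.17. Aif1, a calcium-binding protein of microglia, was at 1.07 ± 0.422 CPM in SCA1 exercise and 0.352 ± 0.0999 CPM in WT exercise mice (n = 3 each, log2 fold change 1.59, edgeR unadjusted p = 0.00226, adjusted p = 0.960). All 13 oligodendrocyte markers were higher with a median of 0.53 and 0 called, and without these mice, 12 of 13 were higher with a median of 0.20. Of 12 markers of Bergmann glia and astrocytes, 9 were higher with a median of 0.10, which turned to 10 lower and -0.06 without these mice. Of 10 endothelial markers 7 were lower with and without them, with medians of -0.11 and -0.08. The 10 choroid plexus markers were all lower, with a median of -0.35, or -0.89 without these mice, and 0 were called in either fit. Against WT sedentary mice, all 10 microglia and 12 of 13 oligodendrocyte markers were lower in WT exercise mice, with medians of -0.36 and -0.44. In SCA1 exercise mice these medians against WT sedentary mice were 0.01 and 0.09, or -0.18 and -0.21 without mice 16 and 55. Choroid plexus markers were higher than in WT sedentary mice in both exercise groups, with medians of 2.88 in WT and 2.57 in SCA1.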
